A study of Mus musculus with 4 samples.

Results

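The Tex14 locus on mouse chromosome 11 was examined in chromatin immunoprecipitation and sequencing (ChIP-seq) of SOX3 from testis at postnatal day 7. Its members were the rows of the authors' table of common peaks that name Tex14 as the nearest gene, which were 6 of 778, and every peak of a replicate list in a 120 kb window around the gene (87200000 to 87320000, mm9). The window held 6 of 2912 peaks in replicate 1, 9 of 2598 in replicate 2 and 9 of 2734 in replicate 3. The locus was chosen by the authors' scores, which are the highest of the data here, so scores and ranks are given as a description and none was tested. Between the replicates the score is compared only through ranks, since it is the authors' own value per peak and its scale is not named in the sources used here.

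The 3 ChIP samples were testes of strain 129/SvJ, immunoprecipitated with a goat polyclonal antibody against human SOX3 (R&D hSOX3, AF2569), and 1 input sample without antibody was labelled as background. The design text gives the ChIP samples as different testes, so the spread over lists is that between testes, which may be partly technical. The mice were of the F6 generation of a Sox3 null line moved to 129/SvJ from mixed stock that held C57Bl/6, CBA, MF1 and 129 sv/eV, and the genotype of each testis is not given in the labels. The input was not analysed here, read depth is unknown, and peak lists hold no expression values, so the tissue could not be checked against its marker genes.

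Tex14 encodes a kinase-like protein of the intercellular bridges that keep dividing male germ cells joined, where it holds back the last step of cell separation, and mice without it form no sperm. U3 is a small nucleolar RNA that guides early cuts in the precursor of ribosomal RNA. Unlike most small nucleolar RNAs, which are cut out of introns of host transcripts, vertebrate U3 is made from its own promoters by RNA polymerase II, as is U1, the small nuclear RNA that recognises the 5′ splice site. SOX3, of the SOX B1 transcription factors, is made in spermatogonia, and its HMG domain binds short sites such as ACAAT.

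In RefSeq's annotation of GRCm38.p6, 8 smaller genes lie inside Tex14, between its neighbours Rad51c, a homologous recombination gene, and Septin4. From the Tex14 start onwards they are Rnu1a1, a U1 gene of 164 bases, Gm22068, an snRNA gene of the same length, the long non-coding gene LOC115487798, then the U3 genes Rnu3b1 (215 bases), Rnu3b3 (215), Rnu3b4 (218) and Rnu3b2 (215), with the 107-base snRNA gene Gm23137 between Rnu3b1 and Rnu3b3. None of the 8 is named as a nearest gene in the common table. In mm9, the build of the peaks, the 6 common peaks followed in the order of a U1 repeat, a promoter-class peak, and 4 U3 repeats. Each common peak has a single detailed label, so a repeat under a peak labelled as a promoter would not show. The RefSeq coordinates are of another build, so peaks were not placed on single genes.

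The common table measures every Tex14 peak from the start of the transcript NM_001199293. The U1 peak, 4597 bp upstream of that start, lay in intron 1 of 30 of a longer transcript, NM_031386, which therefore starts further upstream. No list had a peak in the window upstream of the U1 peak. The RefSeq promoter table holds 1 entry for Tex14, at the start of the gene model. Its 250 bases upstream of the start are shown because they are the upstream sequence of the longer gene form, from the plus strand of GRCm38.p6 (chr11:87404815-87405064), with the single match to ACAAT, read on the minus strand, in capitals.
Tex14 upstream: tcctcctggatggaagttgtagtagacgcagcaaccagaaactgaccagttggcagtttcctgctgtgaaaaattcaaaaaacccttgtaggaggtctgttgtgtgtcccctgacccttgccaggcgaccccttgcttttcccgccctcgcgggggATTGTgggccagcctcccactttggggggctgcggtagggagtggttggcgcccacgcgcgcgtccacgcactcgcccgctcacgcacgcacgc

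The match ended 90 bp before the start of the longer form. The promoter-class peak lies at the other start, NM_001199293, so this match is not a site under that peak. ACAAT, on either strand, was present in 27.7% of the 32851 promoters of the table over the same 250 bases. AACAAT, a longer form that contains the first motif, was not found on either strand and was present in 9.42% of promoters. Nor were the other SOX motif ACAAAG (16.5% of promoters), the POU octamer ATGCAAAT (1.60%), the CCAAT box (33.8%) or the TATA box as TATAAA (12.4%). An absent match says only that these letters are not in the window. Sequences of the U1 and U3 genes inside Tex14 are not printed here.

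The 4 U3 peaks were the 4 highest of each list, with a step below them. From the NM_001199293 start they lay 15688, 21088, 34770 and 43817 bp downstream, all in intron 2 of 30 of that transcript, and their midpoints were 5400, 13682 and 9047 bp apart. The map of peaks along the gene shows the same 6 places in every list.

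**Figure D1:**
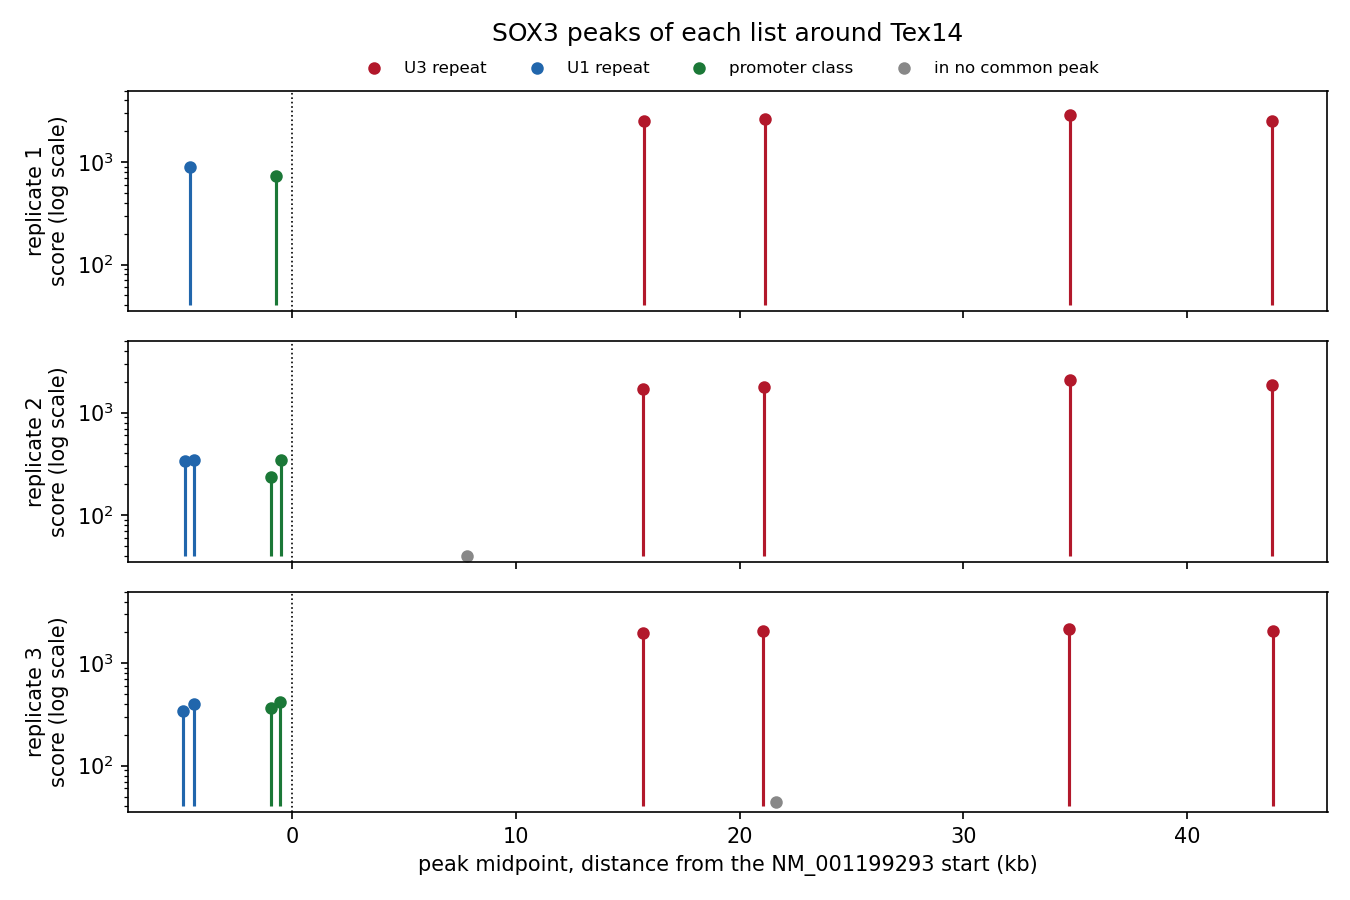
Peaks of the 3 lists around Tex14, 1 panel per replicate. The x axis is the distance of the peak midpoint from the NM_001199293 start in kb (dotted line), the y axis the authors' score on a log scale, and the colour the class of the common peak. The U1 and promoter-class peaks are single in replicate 1 and double in replicates 2 and 3, and the U3 peaks 15.7, 21.1, 34.8 and 43.8 kb downstream are highest.

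The U3 peak 34770 bp downstream (87275409 to 87276317) was at rank 1 in all 3 lists, with scores of 2899.6, 2081 and 2162 in replicates 1, 2 and 3. The peak 43817 bp downstream (87284521 to 87285299) scored 2515, 1862 and 2071, which was rank 3 in replicate 1 and rank 2 in the others. The peak 21088 bp downstream (87261722 to 87262640) scored 2614, 1763 and 2059, rank 2 in replicate 1 and rank 3 in the others. The first copy, 15688 bp downstream (87256353 to 87257209), scored 2496, 1710.2 and 1953 at rank 4 in every list. The ends of the order were thus the same in the 3 lists, and the middle pair changed places in replicate 1.

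The 4 copies were close to each other within a list. The highest copy had 1.16, 1.22 and 1.11 times the score of the lowest in replicates 1, 2 and 3. The lowest copy had 1.69, 1.70 and 2.01 times the score of the best peak outside Tex14, which was a U1 peak near Eapp, a regulator of E2F, in replicate 1 and an intronic peak of 4930415F15Rik in replicates 2 and 3. All 6 common peaks of Tex14 had a score of at least 100 in each list, a level that 7.66, 7.81 and 7.17% of all peaks of replicates 1, 2 and 3 had. Since the locus was picked for its scores, nothing is read from that difference.

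**Figure D2:**
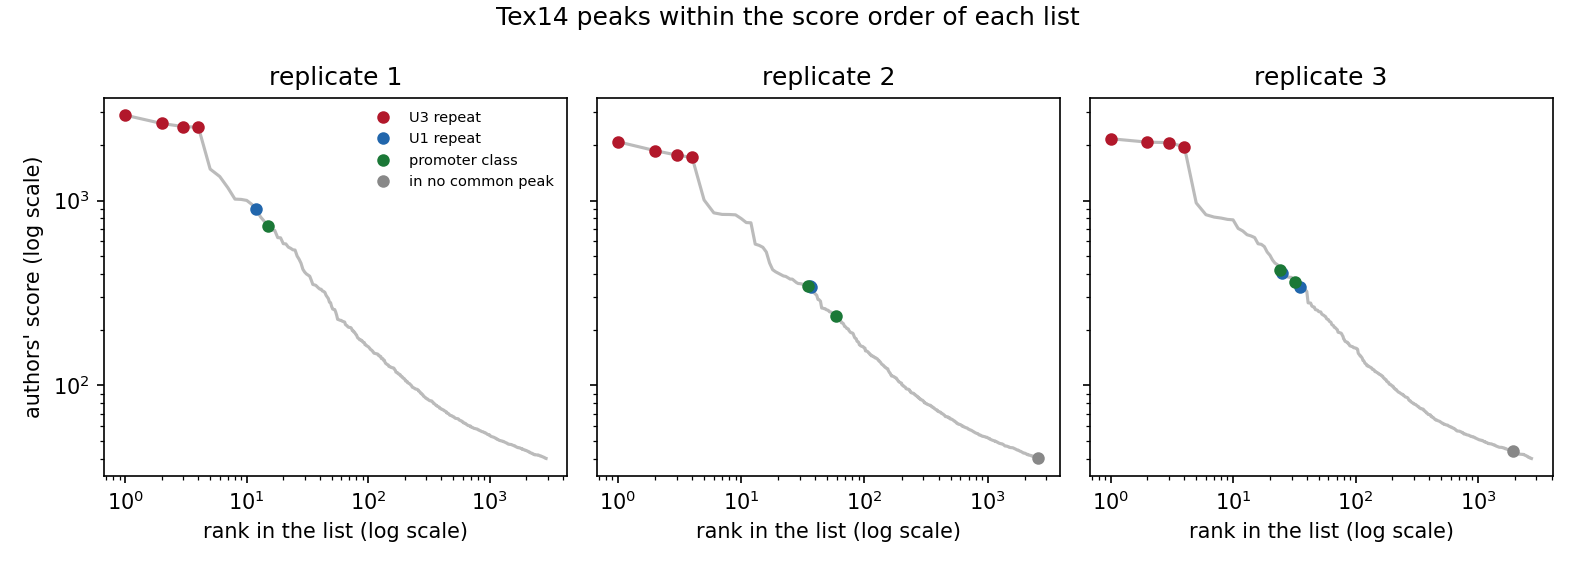
Authors' score against rank within each list, both on log scales, 1 panel per replicate. The grey line is the whole list and coloured points are the peaks of the Tex14 window. The 4 U3 peaks hold ranks 1 to 4 in every panel, above the step to rank 5, and the grey points near the right end are the 2 peaks found in a single list.

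The U1 and promoter-class peaks ranked lower than the U3 copies and close to each other. The U1 peak (87236085 to 87236908) had best scores of 898, 342 and 404 in replicates 1, 2 and 3, at ranks 12, 36 and 25. The promoter-class peak, 683 bp upstream of the NM_001199293 start (87239985 to 87240835), had best scores of 725, 344 and 423, at ranks 15, 35 and 24. Both therefore stood higher in the order of replicate 1 than in those of the other lists. Replicate 1 called each of them whole, whereas replicates 2 and 3 called them in pieces and the higher piece is given. Ranks and ratios thus set a whole peak beside a piece. Against the median U3 copy of the same list, the U1 peak had 0.350, 0.189 and 0.196 times the score and the promoter-class peak 0.283, 0.190 and 0.205 times.

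Each was also set among peaks of its own class, again by the higher piece where a list divided a peak. Of the 12 common peaks in U1 repeats, the Tex14 one took place 4 of 12 with a peak in replicate 1, place 7 of 10 in replicate 2 and place 5 of 12 in replicate 3. Of the 85 promoter-class common peaks, the Tex14 one took place 1 of 73 with a peak in replicate 1, place 6 of 70 in replicate 2 and place 4 of 71 in replicate 3. The Tex14 U1 peak was thus above the median of its class in replicates 1 and 3 (555 and 332) and below it in replicate 2 (365), and the promoter-class peak was near the top of its own class in each list.

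**Figure D3:**
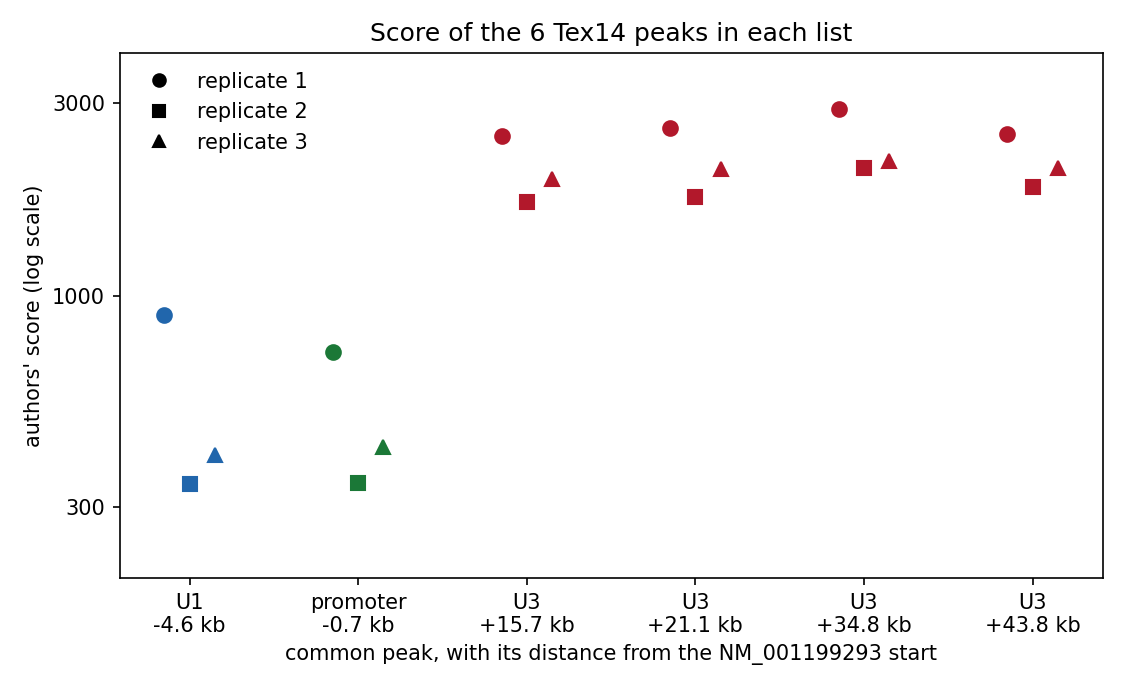
Authors' score (log scale) of the 6 Tex14 common peaks, ordered along the gene by distance from the NM_001199293 start. The symbol gives the replicate and the colour the class; where a list split a peak, the higher piece is shown. The 12 values of the U3 peaks lie between 1710.2 and 2899.6, and the U1 and promoter-class values between 342 and 898.

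All 6 Tex14 common peaks were present in all 3 lists, as were 29.9% of the 778 common peaks. Only Eapp, with 9 of its 9 peaks in all 3 lists, also had 6 or more such peaks, and 574 of the 656 genes of the common table had a single common peak. Beyond these 6 places the window held 2 weak peaks, each in 1 list. That of replicate 2, 7814 bp downstream of the start, scored 40.1 and ranked 2574 of 2598. That of replicate 3, 168 bp wide and just beyond the U3 peak 21088 bp downstream, scored 43.8 and ranked 1921 of 2734. No peak lay near the window's edges: the nearest outside peaks were 313, 348 and 348 kb below the first peak and 1658, 346 and 4219 kb above the last in replicates 1, 2 and 3.

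The positions recurred closely. The midpoints of the U3 peaks varied over the 3 lists by 40.5, 96.5, 47.5 and 34.0 bp from the first copy to the last, and those of the U1 and promoter-class peaks by 50.0 and 57.5 bp. The median range over the 227 other common peaks in all 3 lists was 74.5 bp. Midpoints and extents were taken between the outer edges of a list's pieces, so a gap inside a divided peak counts as covered. The extent shared by all 3 lists was 80.5 to 90.7% of their joint extent at the U3 copies, against a median of 58.9% for those 227. At the U1 and promoter-class peaks it was 82.3 and 81.7%, values that include the gaps described below and would be lower without them. The Tex14 peaks are stronger and wider than most, and this difference was not tested.

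Replicates 2 and 3 divided the U1 and the promoter-class peaks into 2 pieces at nearly the same bases, and no list divided a U3 common peak. In replicate 1 the U1 peak ran unbroken over 824 bp. In replicate 2 it was called as pieces of 353 and 418 bp, with scores of 338 and 342, on both sides of a 38 bp gap. In replicate 3 the pieces were 488 and 455 bp wide, scored 342 and 404, and left a gap of 40 bp. The centres of the gaps were 1.0 bp apart.

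The promoter-class peak, unbroken over 740 bp in replicate 1, was called in replicate 2 as pieces of 306 and 503 bp with scores of 237 and 344. In replicate 3 its pieces were 274 and 380 bp wide and scored 362 and 423. The gaps were 38 and 41 bp, with centres 0.5 bp apart. The common table labels the U1 peak by its repeat and the promoter-class peak by its promoter. Whether the promoter-class peak also covers a repeat is not shown. In replicate 2 the gap was 38 bp at both.

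Of the 233 common peaks in all 3 lists, 8 (3.43%) were whole in replicate 1 and in pieces in both other lists, a count made after the Tex14 values were seen. They were the 2 Tex14 peaks, 3 peaks near Eapp, and 1 each near Ccdc14, Sphk2 and Ypel1. The 3 Eapp peaks, 2 in U1 repeats and 1 intergenic without a repeat, had gaps of 38 bp in replicate 2 and 40 bp in replicate 3, with centres 1.0 bp apart, as at Tex14. Over whole lists, neighbouring peaks that both scored 100 or more and stood 38 to 41 bp apart numbered 1, 8 and 5 in replicates 1, 2 and 3. That range was taken from the Tex14 gaps themselves, so the Tex14 pairs were in the count in advance. The 1 in replicate 1 was near Eapp. In replicate 3 the 5 were 2 at Tex14 and 3 at Eapp, and in replicate 2 Tex14 gave 2, Eapp 5 and Setd2, a histone H3 methyltransferase gene, the remaining 1. With any gap under 100 bp, pairs of such scores numbered 8, 12 and 12 in replicates 1, 2 and 3. Of these, 0, 2 and 2 were at Tex14, 2, 5 and 5 near Eapp, and 6, 5 and 5 elsewhere. None of the 8 U3 peaks of the common table was divided in this way, against 3 of the 10 U1 peaks found in all 3 lists. The 4 U3 peaks outside Tex14 were only 184 to 248 bp wide, while the divided U1 peaks were 824 to 1111 bp wide. Another U1 peak near Eapp was divided in replicate 3 but not in replicate 2, by a gap of 43 bp, and is not among the 3. A part of read mapping or of the peak caller in these gaps was not tested.

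**Figure D4:**
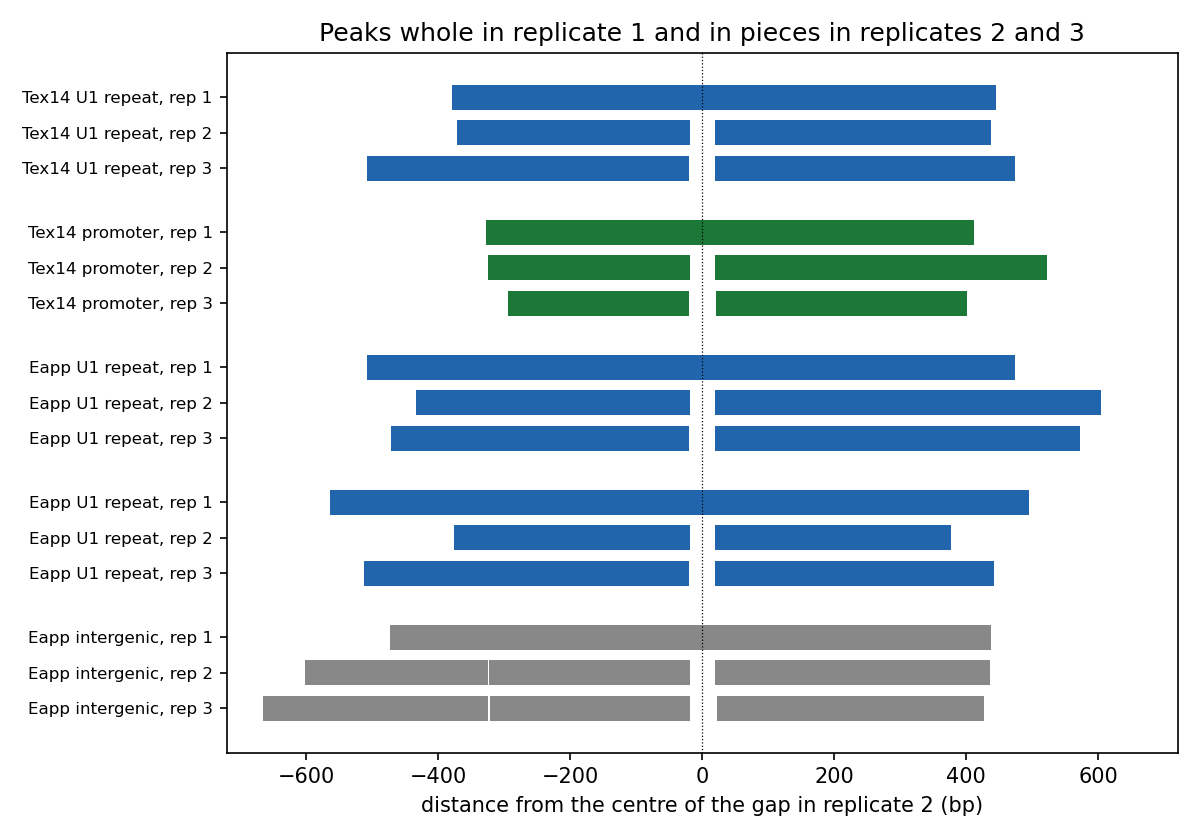
Extent of the peaks that replicate 1 gave whole and replicates 2 and 3 gave in pieces, for the 2 Tex14 peaks and the 3 Eapp peaks whose pieces on both sides of the gap scored 100 or more. The x axis is the distance in bp from the centre of the gap in replicate 2, and each bar is 1 called peak. The gaps of 38 bp in replicate 2 and 40 or 41 bp in replicate 3 have centres at most 1.0 bp apart within each of the 5 peaks; the intergenic Eapp peak has a further break of 1 or 2 bp on the left.

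U3 repeats outside Tex14 carried common peaks that were far lower in the order and far narrower. There were 4, near Pecam1, an endothelial adhesion gene, Snf8, an ESCRT-II gene, Cabp2, a calcium-binding protein gene, and Cnot11, a subunit of the CCR4-NOT complex. All 4 were intergenic and in all 3 lists. The strongest, near Pecam1 on chromosome 11 (106586495 to 106586742), scored 162, 103 and 165 in replicates 1, 2 and 3, and the weakest, near Cnot11 on chromosome 1 (39576303 to 39576542), scored 118, 68.5 and 93.1. The median Tex14 copy scored 19.8, 18.7 and 18.6 times the median of these 4 in replicates 1, 2 and 3, and the groups did not overlap in any list. This difference is what the locus was chosen for and was not tested.

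The 4 Tex14 copies had common peaks 779 to 919 bp wide, and the other 4 U3 peaks were 184 to 248 bp wide. Within the 233 common peaks in all 3 lists, the Tex14 U3 widths took places 18, 20, 28 and 42 from the widest, so they were wide without being the extremes. The U1 and promoter-class peaks, 824 and 851 bp wide, took places 34 and 30. Width and rank come from the same reads and the same peak calls.

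**Figure D5:**
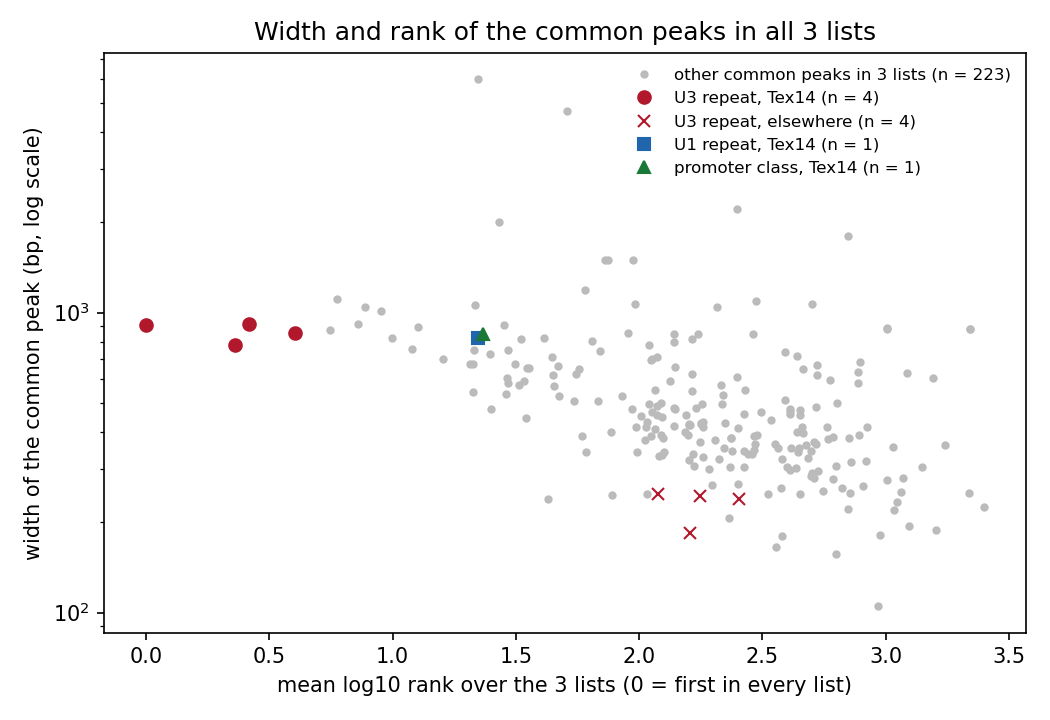
Width of each common peak in bp (log scale) against its mean log10 rank over the 3 lists, for the 233 common peaks in all 3 lists. Grey points are other peaks, circles the Tex14 U3 copies, crosses the U3 repeats elsewhere, the square the Tex14 U1 peak and the triangle the Tex14 promoter-class peak. The circles lie at 779 to 919 bp at the left edge and the crosses at 184 to 248 bp.

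Under symbols that begin with Rnu3a or Rnu3b, RefSeq lists 5 U3 genes, the 4 inside Tex14 and Rnu3a on chromosome 10. It also lists 3 pseudogenes named Rnu3b-ps1 to Rnu3b-ps3. U3 copies under other symbols were not searched for. Rnu3b-ps1 stands next to Cabp2, where the common table has the U3 repeat peak 4003 bp upstream of that gene (scores 126, 90.5 and 118). Rnu3a stands next to Gtf3c6, a subunit of transcription factor IIIC. The only common peak of Gtf3c6 was of the promoter class, 940 bp upstream of its start (scores 188, 179 and 96.2). Its label names the promoter, so whether that peak covers a U3 repeat is not shown. The host and flanking genes of Rnu3b-ps2 and Rnu3b-ps3 were the nearest gene of 0 common peaks.

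The genes most like Tex14 were named by the rank of their best peak in the 3 lists. The 5 nearest in mean log10 rank, which is 0 for Tex14, were 4930415F15Rik (0.75), Eapp (0.77), BC107364 (0.86), Hfe2, the hemojuvelin gene (0.95), and Nxn, the nucleoredoxin gene (1.00). The best peaks of Eapp, BC107364 and Hfe2 were in U1 repeats and those of 4930415F15Rik and Nxn were intronic without a repeat. The promoter-class peak of Tex14 had a mean log10 rank of 1.37, and the nearest promoter-class peak was at Rnu11, the gene of U11 of the minor spliceosome (1.33; 7 bp upstream of the start; scores 539, 558 and 397). The next were 4930404N11Rik (1.43), Slc39a10, a zinc transporter gene (1.45), Hist2h2aa1 (1.46) and Eapp (1.20).

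Genes that act with Tex14 or with U3 were counted from 4 lists. Of 25 genes of the intercellular bridge and the midbody, 2 (8.00%) had a common peak within 5000 bp of a start. Among 21896 protein-coding genes the share was 0.712%. Tex14 was 1 of these, and it was chosen for its peaks. The bridge count was thus partly set in advance, so no interval is given and it is not read against that share. The other was Septin7, a filament-forming GTPase, with a peak 103 bp upstream of the start that scored 47.5 in replicate 1 and 47.0 in replicate 2 and was absent from replicate 3. Without replicate 1 or without replicate 2 the count was therefore 1.

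Of 25 genes matched for snRNA promoter factors and the Integrator complex, which trims the ends of such RNAs, 2 (8.00%, 0.984 to 26.03%) had a common peak within 5000 bp. The lists were chosen with earlier results of these data known, so this interval is not read against the share of all protein-coding genes. Ints13, an Integrator subunit listed as Asun, had a promoter-class peak in all 3 lists (281 bp downstream; scores 45.5, 56.0 and 58.7). Ints6, another subunit, had a peak 15 bp downstream. Its scores were 105 and 42.3 in replicates 1 and 2, and replicate 3 had no such peak, so that the count was 1 without replicate 1 or 2. A count of 1 has an interval of 0.101 to 20.4%, beside 0.493 and 0.498% of all protein-coding genes without replicate 1 and without replicate 2. The U3 partner proteins of the small subunit processome had 0 of 45 and the genes of snoRNA capping and assembly 0 of 13. Taken as 3 counts of the total, a count of 0 allows shares of up to 6.67 and 23.1%, and the exact Clopper-Pearson upper bounds are 7.87 and 24.7%. These limits lie above the 0.712% of all protein-coding genes, so lists of this size cannot show a lower share.

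At any distance, where 2.52% of protein-coding genes were the nearest gene of a common peak, Utp6 of the processome and Tgs1, the enzyme of the trimethylguanosine cap, were added. The Utp6 peak was 88505 bp from the start in an LTR element, and scored 62.5 and 45.9 in replicates 1 and 2, with no peak in replicate 3. The Tgs1 peak was intronic, 39207 bp from the start, and scored 63.4, 97.3 and 50.9. The intervals cover counting error only.

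Among the neighbours of Tex14, a common peak at any distance was assigned to 1 of the 10 protein-coding genes on the side from Cltc to Rad51c, Gdpd1, and to 0 of the 10 from Septin4 to Epx, beside 2.52% of all protein-coding genes. So few genes give no reading above or below that share. The Gdpd1 peak lay 118 bp downstream of the start and scored 102, 99.3 and 91.6.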

How the data were processed

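The members and gene lists were chosen with earlier results of these data known. Per the labels' protocols, fixed and sonicated testis chromatin was immunoprecipitated and sequenced as single-end reads. The submitters' processing notes list Bowtie2 2.0.0 and the build mm9. Peak names begin with MACS per the file contents. The caller's version and settings, and the treatment of duplicate reads and of reads that fit several copies, have no statement in the labels or headers and could change peaks in near-identical U1 and U3 copies. Each deposited list gives positions and the authors' score per peak, used only to describe, rank or filter within a list. The deposited common table holds sites found in at least 2 samples, annotated with HOMER's annotatePeaks.pl per the file headers; its own score was 0 in every row. Peaks were joined at an overlap of 1 bp or more, and a common peak took the best score of its pieces. Genes were matched by identifier to RefSeq (GRCm38.p6; 776 of 778 rows), list genes by symbol or synonym. Upstream sequence is RefSeq's. Genes named followed a rule: Tex14, other U3 repeat peaks, list and neighbouring genes with a common peak, U3 genes, and the 5 genes nearest in rank. Ccdc14, Sphk2, Ypel1 and Setd2 were named after their values were seen. No group comparison was tested. Overlap and motif steps were tested on simulated data. Python 3.11.15 and pandas 2.3.3 were used.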

Additional observations from a re-analysis of the deposited data

How the results depend on the processing

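All 6 Tex14 peaks stayed in every list used when peaks had to score 100 or more, and 5 did under a 50% reciprocal overlap. The promoter-class peak did not, because its wider piece in replicate 3, of 380 bp, is under 50% of the 851 bp common peak. The locus was picked for its scores, so the score setting is no independent check. Since all 6 were in all 3 lists, leaving out a replicate could only return 6. The 6 window places shared by the lists were 6 under each of those settings, where leaving out a replicate could not lower the count. The highest U3 copy by score was that 34770 bp downstream in 3 of 3 lists. By width it led in replicate 1 alone, and the copy 21088 bp downstream was widest in the other 2 lists. Of 39 alternatives over all results, 31 gave a count within 1.5 times the reported one. These include the settings above that could not lower a count, so the tally is no measure of stability. Requiring a peak in all 3 lists left 1 bridge gene (Tex14) and 1 snRNA transcription gene (Ints13), each of 25, beside 0.374% of all protein-coding genes. Leaving out replicate 1, 2 or 3 gave 1 to 2 for both, beside 0.493, 0.498 and 0.489% of all protein-coding genes. At any distance the processome list had 1 of 45 genes (2.22%) and the capping list 1 of 13 (7.69%), beside 2.52% of all protein-coding genes. Single genes give no reading above or below that share. With 20 genes on each side, 1 neighbour had a common peak, beside 2.52% of all protein-coding genes. Single-list peaks carry no nearest gene, so that alternative for the neighbours was not run. No paired analysis was possible because no result comes from a test between groups. Read depth, which limits whether weak peaks are found, is unknown.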

Other observations

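Short gaps at fixed places were also seen at peaks not labelled as U1 repeats, among pairs of neighbouring peaks that both scored 100 or more. Between Hist2h2aa1 and its neighbour Hist2h3c1 on chromosome 3, which encode replication-dependent histones, the gap starting near 96043918 was 33, 28 and 37 bp in replicates 1, 2 and 3. Near Eapp on chromosome 12, a pair of peaks without an snRNA repeat was separated by 36 bp in replicate 1 and by 38 bp in replicate 2, in both up to 55820236, and replicate 3 had no such pair there. Another Eapp pair, near 55835612, was 40, 39 and 50 bp apart in replicates 1, 2 and 3. Unlike at Tex14, these 3 places were divided in replicate 1 too. The median of all gaps under 100 bp was 33.0, 38.0 and 43.0 bp in the lists, over 79, 55 and 71 pairs of neighbouring peaks of any score.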
